A study of Mus musculus with 60 samples.

Results

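The transcripts followed here mark the timing of the change from trunk to tail formation, and were measured in the tailbuds of single mouse embryos. They are ENSMUST00000051674 (Lin28a), ENSMUST00000079390 (Lin28b) and ENSMUST00000026408 (Gdf11), 3 of the 117135 transcripts listed for every library. They were chosen by identifier, and all 3 were among the 45394 transcripts with enough reads to be tested. The gene symbols came with that choice. None of the name tables used here holds Ensembl transcript identifiers, so the pairing of symbol and identifier could not be checked, and each value below belongs to the identifier. One transcript of each gene was followed, not the sum over the gene.

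The series compares wild-type mice with mice whose JARID2 protein, a cofactor of the Polycomb repressive complex PRC2, carries the substitution K116R (arginine in place of a lysine, the position counted along the protein). Tailbud RNA was sequenced from 27 embryos at 12, 13, 14 or 16 somites, with 4 wild-type embryos at each stage and with 2, 2, 2 and 5 mutant embryos in that order. The labels name the mutants only as MUT, and they give no zygosity, strain, sex, litter or sequencing batch. The other 33 of the 60 samples, chromatin immunoprecipitation and input libraries of embryonic stem cells, were not analysed here. Each library is 1 embryo, so p-values measure the spread between embryos, and embryos of one litter may be among them. The identity of the tissue could not be checked against marker genes, because the files name transcripts by identifier only. In tissue RNA, fewer cells that express a transcript and less of it in each cell cannot be told apart.

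LIN28A and LIN28B are RNA-binding proteins that block the maturation of the let-7 microRNAs, and both are abundant in early embryos and decline as tissues differentiate. In the mouse tailbud they favour continued axial elongation, and loss or prolonged expression of LIN28 proteins shortens or lengthens the tail. GDF11 is a secreted ligand of the TGF-beta family that signals through activin type II receptors and SMAD2 and SMAD3, and it sets the position at which the trunk ends and the tail begins. PRC2 deposits trimethylation on histone H3 lysine 27 at repressed promoters, many of them rich in CpG, and JARID2 methylated at lysine 116 is known to stimulate the complex.

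The sequence before the Gdf11 gene is shown because it is the one window of the 3 genes that lies before the outermost annotated start of its gene. RefSeq windows (build GRCm38.p6) were matched by symbol for 3 of 3 genes, all on the minus strand. The Lin28a window precedes a start that lies 380 bases inside the gene (chr4:134003330-134019196), and the Lin28b window one that lies 16113 bases inside the gene (chr10:45376617-45486314). Those windows are not shown, and CpG content is not compared between the genes. The Gdf11 gene spans chr10:128880524-128891718. The 250 bases before its start, chr10:128891719-128891968, are printed 5′ to 3′ along the gene's strand, with every CG in capitals.
Gdf11: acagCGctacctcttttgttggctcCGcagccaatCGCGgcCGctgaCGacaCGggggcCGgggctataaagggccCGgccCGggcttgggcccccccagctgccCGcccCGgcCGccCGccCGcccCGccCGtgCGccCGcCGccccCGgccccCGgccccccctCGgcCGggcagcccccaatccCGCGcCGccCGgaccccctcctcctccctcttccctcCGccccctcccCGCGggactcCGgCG
The window held 33 CpG and a GC content of 81.2%, and of 32817 RefSeq windows of the same length before a start, 96.0% held fewer CpG and the median was 6. It held the letters TATAAA, found in 12.4% of all windows, and the letters CCAAT, found in 33.8%, both searched on either strand. TATAAA and CCAAT share no overlapping site. No chromatin data from these embryos were analysed, so the window describes the gene and not the measurements.

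The libraries held 20908500 to 27090700 estimated reads. Mutant embryo 1 at 16 somites stood apart, with a mean correlation of 0.836 to its group (0.874 to 0.878 for the other 4) and the lowest read total of all 27. Wild-type embryo 4 at 14 somites stood apart too, with a mean correlation of 0.864, the highest scaling factor (1.22) and the strongest dependence on transcript length (slope 0.233). In CPM, the first of them held the highest Gdf11 and Lin28b levels of all embryos, and the second the lowest Gdf11 level. In TPM the order differed: the highest Lin28b level was in the second (7.03 TPM, against 4.41 TPM in the first), and the lowest Gdf11 level in mutant embryo 2 at 12 somites (2.44 TPM, against 3.67 TPM in the second). Several test results are given with and without these embryos, an addition made once their levels were known.

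Levels are given in CPM, reads relative to the library total after TMM scaling between libraries, for comparisons of 1 transcript across embryos, and in TPM, which also accounts for length, for comparisons between transcripts. Lin28a was the most abundant of the 3 in every embryo, and Lin28b and Gdf11 were close to each other. Over the 27 embryos, the level of Lin28a was 34.2 ± 6.86 TPM (SD, n = 27), that of Gdf11 5.26 ± 1.35 TPM and that of Lin28b 4.65 ± 0.861 TPM. The levels of Gdf11 and Lin28b differed by less than their spread. Lin28a exceeded both others in 27 of 27 embryos, and Gdf11 exceeded Lin28b in 19 of 27. The latter was so in 3 of 6 embryos at 12 somites, 3 of 6 at 13, 4 of 6 at 14 and 9 of 9 at 16. The ratio of Lin28a to Lin28b TPM had a median of 7.42 and a range of 5.62 to 9.45. Estimated counts behind these values ran from 2124 to 4023 reads for Lin28a, from 454 to 858 for Lin28b and from 275 to 845 for Gdf11. The counting error that such counts allow, 1.68 to 2.08% for Lin28a and 3.88 to 5.88% for the others by group, covers sampling of reads only.

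With all embryos included, the spread between embryos of the same group was smallest for Lin28a and largest for Gdf11. The SD of log2 CPM within groups was 0.15 for Lin28a, 0.22 for Lin28b and 0.35 for Gdf11. The median SD of the transcripts of similar mean level (the same decile) was 0.20 for Lin28a and 0.26 for both others. With all embryos included, Gdf11 was thus more variable than 71.7% of the transcripts at its level, and Lin28a less variable than all but 22.4% of those at its own. The largest Gdf11 deviations from a group mean, 0.689 and -0.849 log2 CPM, were in the embryos that stood apart. The SD without those embryos was not computed, so the place of Gdf11 among transcripts of its level may rest on them.

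**Figure D1:**
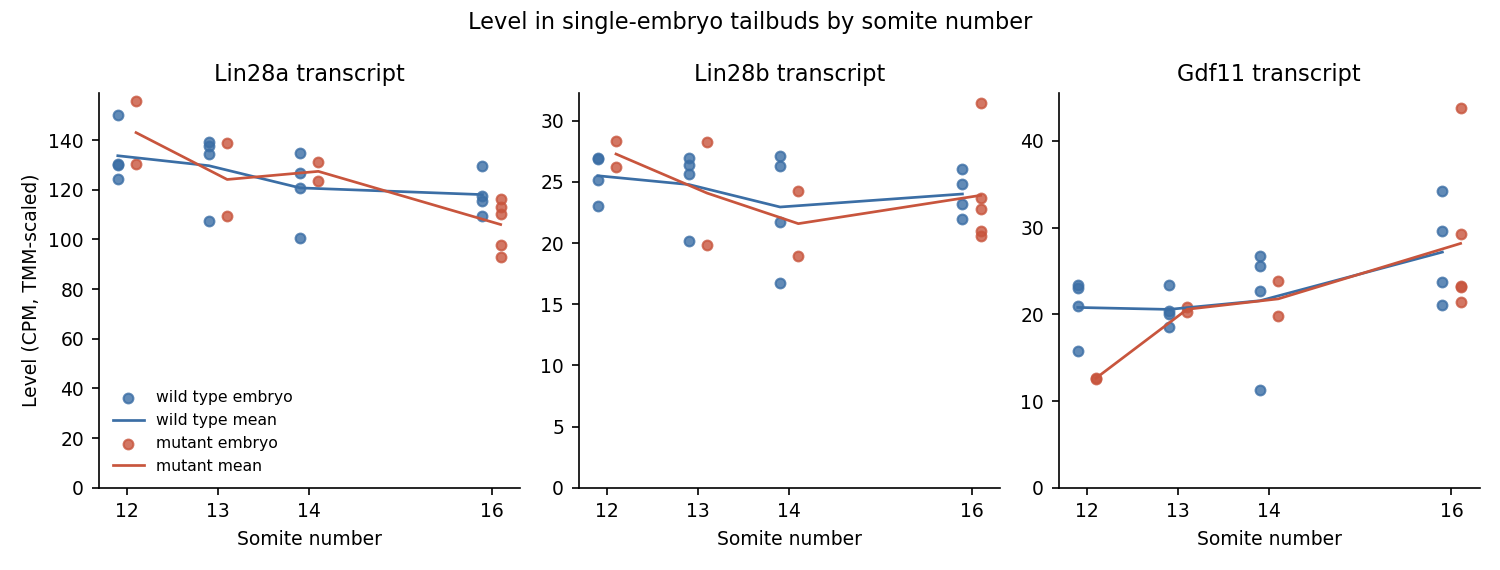
Level of each transcript (CPM, TMM-scaled, linear axes from 0) against somite number, with 1 point per embryo in blue for wild type and red for mutants, and lines through the group means. The Lin28a means were lower and the Gdf11 means higher at 16 than at 12 somites in both genotypes, and the mutant Gdf11 values at 12 somites (12.6 and 12.7 CPM) lie below all 4 wild-type values.

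Lin28a, the more abundant of the LIN28 transcripts followed here, had its lowest mean level at the latest stage in both genotypes. In wild-type embryos the Lin28a level was 130.1, 150.1, 130.4 and 124.2 CPM at 12 somites, and 134.4, 107.6, 137.7 and 139.1 CPM at 13 somites. At 14 somites it was 100.6, 120.7, 134.8 and 127.0 CPM, and at 16 somites 129.7, 109.5, 117.6 and 115.4 CPM. The stages overlapped throughout, and of all tested transcripts 1.44% had every 16-somite embryo below and 1.63% above every 12-somite embryo in wild type. The highest Lin28a level was in embryo 2 at 12 somites, and embryo 1 at 16 somites was above 1 of the 4 embryos at 12. The wild-type means ran from 134 ± 11.3 CPM (SD, n = 4) at 12 somites to 118 ± 8.49 CPM (n = 4) at 16. In mutants the Lin28a level was 155.6 and 130.4 CPM at 12 somites, 109.4 and 138.9 CPM at 13, and 123.7 and 131.2 CPM at 14. At 16 somites it was 116.2, 93.0, 97.6, 110.2 and 113.0 CPM, a mean of 106 ± 10.1 CPM (n = 5). All 5 mutants at 16 somites were below both mutants at 12 somites, an order that 5.91% of all tested transcripts also showed. They were also below both at 14 somites, an order that 8.4% showed, and the share with both orders together was not computed. The reverse order, all mutants at 16 somites above those at 14, was seen in 6.68%.

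The slope of Lin28a per somite was -0.05 on the log2 scale in wild type and -0.10 in mutants. The wild-type slope (n = 16) had an SE of 0.024 and an unadjusted p of 0.0555, and its adjusted p was 1.00 (edgeR quasi-likelihood test, Benjamini-Hochberg over 36763 transcripts). The mutant slope had an SE of 0.028, an unadjusted p of 0.00542 and an adjusted p of 0.703 (edgeR, Benjamini-Hochberg over 39151 transcripts). The same fits called 8 transcripts in wild type, 0.0218% of those tested, and 10 in mutants, 0.0255%, and none of the 3 members was among them. An unadjusted p under 0.05 was given to 2.74% of transcripts in wild type and 6.07% in mutants. Two-sided permutation tests of somite number against log2 CPM, each on this single transcript with 100000 resamples, gave p = 0.0717 in wild type (n = 16) and p = 0.00685 in mutants (n = 11). The mutant slope minus the wild-type slope was -0.05 (95% interval -0.13 to 0.02, edgeR adjusted p = 1), so the slopes could not be told apart. With 1 slope for both genotypes and genotype as a covariate, a fit added after the data were seen, the slope was -0.07 (SE 0.019). Its edgeR adjusted p was 0.149, its unadjusted p 0.000752, and the two-sided permutation test within genotypes gave p = 0.0011. Without the embryos that stood apart this slope was -0.08 (edgeR adjusted p = 0.0867). Without the 16-somite embryos the slope was -0.08, with an edgeR adjusted p of 0.628.

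The direct comparison of 16 with 12 somites gave a log2 change of -0.18 (SE 0.11, edgeR adjusted p = 1) for Lin28a in wild type and -0.43 (SE 0.13, edgeR adjusted p = 0.580) in mutants. The unadjusted edgeR p was 0.111 in wild type and 0.00234 in mutants. In these comparisons 0.0198% of transcripts were called in wild type and 0.0485% in mutants, again with none of the 3 members, and an unadjusted p under 0.05 was given to 3.74% and 6.88%. The median absolute change of the 12825 transcripts with a mean of 5 to 200 CPM was 0.11 in wild type and 0.21 in mutants.

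Lin28b, the second LIN28 paralog, had slopes within their error in both genotypes. Its wild-type level was 23.0, 27.0, 26.8 and 25.1 CPM at 12 somites, and 25.6, 20.2, 26.4 and 27.0 CPM at 13 somites. At 14 somites it was 16.7, 21.7, 26.3 and 27.1 CPM, and at 16 somites 24.8, 26.1, 23.2 and 22.0 CPM. Embryo 1 at 14 somites held the lowest Lin28b level of the whole set, and the wild-type stages overlapped. In mutants the Lin28b level was 28.4 and 26.2 CPM at 12 somites, 19.9 and 28.3 CPM at 13, and 19.0 and 24.2 CPM at 14. At 16 somites it was 31.5, 23.7, 21.0, 20.6 and 22.8 CPM. The mutants at 14 somites were both below those at 12, an order shown by 15.6% of tested transcripts, and the other mutant stages compared, 16 against 12, 16 against 14 and 13 against 12, overlapped.

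The slope of Lin28b per somite was -0.03 on the log2 scale (SE 0.032) in wild type and -0.02 (SE 0.045) in mutants. The edgeR adjusted p was 1.00 and 0.949, and the unadjusted p 0.435 and 0.592. Two-sided permutation tests gave p = 0.508 in wild type (n = 16) and p = 0.501 in mutants (n = 11). The 95% interval of the mutant slope, -0.12 to 0.07 per somite, includes the Lin28a mutant slope, so a slope of that size could not be told from 0 here. Without mutant embryo 1 at 16 somites, which held the highest Lin28b level, the mutant slope was -0.06 (n = 10, unadjusted edgeR p = 0.0983), and without mutant embryo 1 at 12 somites it was -0.0047 (n = 10, unadjusted edgeR p = 0.929). Without the 16-somite embryos it was -0.17 (SE 0.099, edgeR adjusted p = 0.984). On log2(TPM + 0.1) the mutant slope was -0.07, with a two-sided permutation p of 0.0417 (n = 11). That scale shifts most transcripts down with stage. The median slope over both genotypes was -0.025 on it and -0.0035 on log2 CPM, for transcripts averaging 1 CPM or more. The log2 change from 12 to 16 somites was -0.09 (SE 0.16) in wild type and -0.19 (SE 0.18) in mutants, with edgeR adjusted p of 1 and 0.850.

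Gdf11, the ligand of the set, had its highest mean level at 16 somites in both genotypes, opposite in sign to Lin28a. In wild-type embryos the Gdf11 level was 21.0, 15.8, 23.4 and 23.1 CPM at 12 somites, and 20.4, 20.0, 23.4 and 18.5 CPM at 13 somites. At 14 somites it was 22.7, 25.6, 26.7 and 11.3 CPM, and at 16 somites 21.1, 29.6, 34.3 and 23.7 CPM. Embryo 4 at 14 somites, one of those that stood apart, was lower than every wild-type embryo at 12 somites, and the stages overlapped. The wild-type means were 20.8 ± 3.53, 20.6 ± 2.03, 21.6 ± 7.04 and 27.2 ± 5.93 CPM (SD, n = 4 each) from 12 to 16 somites, so the first 3 stages differed by less than their spread.

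In mutants the Gdf11 level was 12.6 and 12.7 CPM at 12 somites, 20.9 and 20.3 CPM at 13, and 23.8 and 19.8 CPM at 14. At 16 somites it was 43.8, 21.4, 23.3, 23.1 and 29.2 CPM. Both mutants at 12 somites were lower than all mutants at the later stages. Transcripts with all embryos higher than at 12 somites made up 14.7% of those tested at 13 somites, 17% at 14 and 4.45% at 16. These shares take each stage alone, and the share with that order at all later stages together was not computed. Embryo 1 at 16 somites, the other embryo that stood apart, held the highest Gdf11 level of the set, and the next was 29.2 CPM in its group. In TPM the mutant means were close, at 5.48 ± 1.01 at 14 somites (SD, n = 2) and 5.70 ± 1.44 at 16 (n = 5). At 16 somites that embryo was at 8.04 TPM and the others at 4.39 to 6.06, so the higher TPM mean rests on it. The count of reads for Gdf11 at 12 somites averaged 289 in the 2 mutants, the lowest of any group.

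The slope of Gdf11 per somite was 0.10 on the log2 scale (SE 0.051) in wild type and 0.24 (SE 0.063) in mutants. The wild-type edgeR p was 0.0668 unadjusted and 1.00 adjusted, and the mutant edgeR p was 0.00229 unadjusted and 0.541 adjusted. Two-sided permutation tests on this transcript alone gave p = 0.116 in wild type (n = 16) and p = 0.00078 in mutants (n = 11). Without the 2 embryos that stood apart, the slopes were 0.10 with a permutation p of 0.015 in wild type (n = 15) and 0.18 with a permutation p of 0.00095 in mutants (n = 10), and the edgeR adjusted p remained above 0.05 at 0.973 and 0.588. The mutant slope minus the wild-type slope was 0.14 (95% interval -0.03 to 0.31, edgeR adjusted p = 1), and 0.08 without those embryos, so a difference between genotypes did not pass the test. No transcript was called for a difference of slopes by edgeR, whereas 2080 (4.58%) had an unadjusted p under 0.05, and DESeq2 called 111 and limma voom 0.

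With 1 slope for both genotypes, Gdf11 gave 0.16 per somite (SE 0.042), with an edgeR unadjusted p of 0.000723, an adjusted p of 0.147 and a two-sided permutation p of 0.00129. In that fit 91 transcripts were called, 0.2% of those tested, and 6.52% had an unadjusted p under 0.05. Without wild-type embryo 4 at 14 somites alone the slope was 0.17 and its edgeR adjusted p 0.0383, below the threshold, and without both embryos that stood apart it was 0.13 with an adjusted p of 0.0429. By DESeq2 on all embryos the adjusted p was 0.0264 for Gdf11 and 0.0253 for Lin28a. Whether the common slopes passed the adjusted threshold thus depended on the test, and for Gdf11 on 1 library. Without the 16-somite embryos the wild-type Gdf11 slope was 0.03 (edgeR adjusted p = 0.987) and the mutant slope 0.39 (edgeR adjusted p = 0.960).

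The log2 change of Gdf11 from 12 to 16 somites was 0.39 (SE 0.23, edgeR unadjusted p = 0.113) in wild type and 1.16 (SE 0.30, edgeR unadjusted p = 0.000759) in mutants. The edgeR adjusted p was 1 and 0.348. DESeq2 gave an adjusted p of 0.00885 for the mutant change. Without the embryos that stood apart the mutant change was 0.94, with an edgeR adjusted p of 0.0657.

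**Figure D2:**
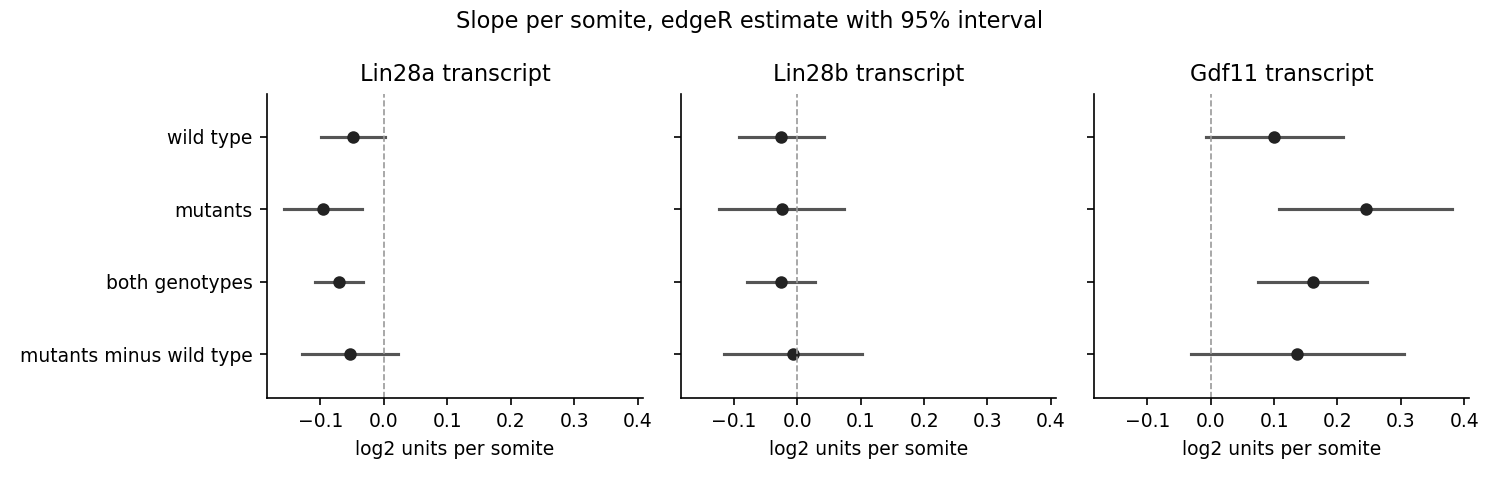
Slope per somite (log2 units) of each transcript in wild type, in mutants, over both genotypes, and the mutant minus the wild-type slope, as the edgeR estimate (point) with its 95% interval (line), and a dashed line at 0. Intervals for Lin28a lie below 0 and those for Gdf11 above 0 in mutants and over both genotypes, the wild-type intervals reach 0, all Lin28b intervals include 0, and so do all 3 intervals of the difference.

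The ratio of Lin28a to Gdf11 TPM within each embryo, which does not depend on the scaling between libraries, was lowest on average at 16 somites in both genotypes. The ratio averaged 7.85 ± 2.29 at 12 somites, 7.46 ± 1.09 at 13, 7.47 ± 3.79 at 14 and 5.35 ± 1.48 at 16 in wild type (SD, n = 4 each). In mutants it averaged 13.4 ± 1.75 (n = 2), 7.10 ± 1.32 (n = 2), 6.96 ± 1.21 (n = 2) and 4.65 ± 0.959 (n = 5). At 14 somites the wild-type ratios were 5.25, 5.55, 5.93 and 13.1, the last in embryo 4, which stood apart. The mean of that group, 7.47, thus lies above all its other embryos and rests on that library. The highest ratio was 14.6 in a mutant at 12 somites. The lowest was 3.08 in mutant embryo 1 at 16 somites, the other embryo that stood apart. Both mutants at 12 somites, at 12.1 and 14.6, were above all wild-type embryos of that stage, which ranged from 6.32 to 11.2. This repeats the order of Gdf11 alone, where both mutants were below all wild-type embryos. In CPM 6.09% of all tested transcripts showed that order, and Lin28a overlapped. How often ratios of other transcripts do so was not computed. The ratio combines values already given and was not tested.

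**Figure D3:**
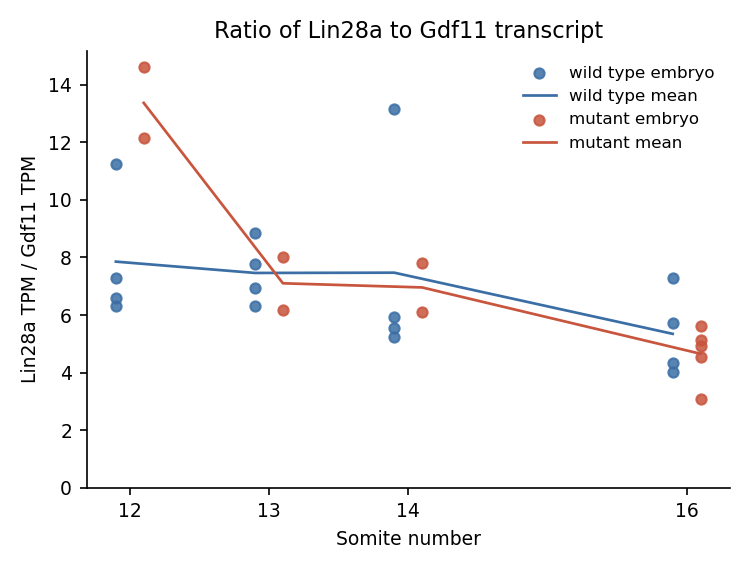
Ratio of Lin28a to Gdf11 TPM (linear axis from 0) against somite number, with 1 point per embryo in blue for wild type and red for mutants, and lines through the group means. The mutant mean runs from 13.4 at 12 somites to 4.65 at 16, and the wild-type mean from 7.85 to 5.35. The wild-type point at 13.1 at 14 somites is embryo 4, which stood apart and raises the mean there.

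The question of the genotype comparison is whether the JARID2 substitution alters these transcripts at matched stages. None of the 3 passed the test between genotypes over all stages. The mean level was 126 ± 13.1 CPM in wild type (SD, n = 16) and 120 ± 18.4 CPM in mutants (n = 11) for Lin28a, and 24.3 ± 2.97 and 24.1 ± 4.04 CPM for Lin28b. For Gdf11 it was 22.5 ± 5.30 CPM in wild type and 22.8 ± 8.44 CPM in mutants. With stage as a covariate, the log2 change in mutants was -0.03 for Lin28a (95% interval -0.16 to 0.09), -0.01 for Lin28b (-0.18 to 0.16) and -0.12 for Gdf11 (-0.41 to 0.17). The edgeR adjusted p-values were 0.966, 0.994 and 0.924. The Gdf11 value is negative although the mutant mean is the higher one. At 16 somites, the stage with the highest level, stood 5 of the 11 mutants and 4 of the 16 wild-type embryos, and with no stage covariate the log2 change was 0.02. The fit with stage as a covariate called 7 transcripts, 0.0154% of those tested, and gave 7.63% an unadjusted p under 0.05. Exact two-sided permutation tests of genotype within stages, over 425250 arrangements each, gave p = 0.609 for Lin28a, p = 0.870 for Lin28b and p = 0.412 for Gdf11.

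The pooled Gdf11 genotype value depended on single embryos, in both directions. Leaving out either mutant embryo at 12 somites, neither of which stood apart, moved the log2 change from -0.12 to -0.06 (edgeR adjusted p = 0.956 and 0.990). Without the embryos that stood apart the log2 change was -0.25, with an exact permutation p of 0.0186 and an edgeR adjusted p of 0.532. Those embryos held the highest mutant (43.8 CPM) and the lowest wild-type (11.3 CPM) Gdf11 level. Leaving them out therefore lowers the log2 change and its spread by construction, and no conclusion is drawn from that permutation p. The permutation tests were 12 in number on the full set, and their p-values are not adjusted for that number.

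Within stages, the largest difference between genotypes among the members was that of Gdf11 at 12 somites. The levels there were 12.6 and 12.7 CPM in mutants and 15.8 to 23.4 CPM in wild type. In TPM the mutants were at 2.89 and 2.44. The closeness of the mutant CPM values (coefficient of variation 0.44%) is below the counting error of 5.88%, so it is no measure of the spread between embryos. The groups did not overlap, an order in this direction that 6.09% of all tested transcripts showed, and it was the only one of 12 comparisons of a member between genotypes at 1 stage without overlap. Mutants above all wild-type embryos at 12 somites were found for 6.77% of transcripts. The shares with mutants below or above all wild-type embryos were 5.9% and 6.66% at 13 somites, 4.01% and 5.1% at 14, and 1.27% and 0.881% at 16. The log2 change was -0.72 (SE 0.30), with an edgeR unadjusted p of 0.0242 and an adjusted p of 1. No transcript was called at this stage by edgeR, whereas 1740 (3.83%) had an unadjusted p under 0.05, and DESeq2 called 301 and limma voom 11. An exact permutation test of 2 mutants against 4 wild-type embryos cannot give a p under 0.0667. At the later stages the log2 change of Gdf11 was 0.00 at 13 somites, 0.01 at 14 and 0.05 at 16, each with an SE of 0.22 to 0.29. Without the embryos that stood apart these were -0.01, -0.21 and -0.15, and the change at 12 somites was -0.72 (edgeR unadjusted p = 0.000807, adjusted p = 0.416). Neither of those embryos was at 12 somites. The estimate there kept its size and rests on the same 2 mutants. Its SE went from 0.30 to 0.18, since the fit shares 1 spread over all groups, and no conclusion is drawn from the smaller p. Without mutant embryo 1 or without mutant embryo 2 at 12 somites the change there was -0.71 or -0.72, each time with 1 mutant left.

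The within-stage changes of Lin28a were 0.10, -0.06, 0.08 and -0.16 on the log2 scale from 12 to 16 somites, and those of Lin28b 0.10, -0.04, -0.09 and -0.01. Every 95% interval of both transcripts included 0. At 13 and 14 somites 0.00661% of transcripts were called, with 3.39% and 3.1% at an unadjusted p under 0.05, and at 16 somites none, with 6.13% at an unadjusted edgeR p under 0.05, where DESeq2 called 253 and limma voom 1. The test of whether the genotype effect varied with stage gave edgeR unadjusted p-values of 0.390 for Lin28a, 0.914 for Lin28b and 0.195 for Gdf11, each with an adjusted p of 1. It called 0.00661% of transcripts, and 2.95% had an unadjusted p under 0.05.

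**Figure D4:**
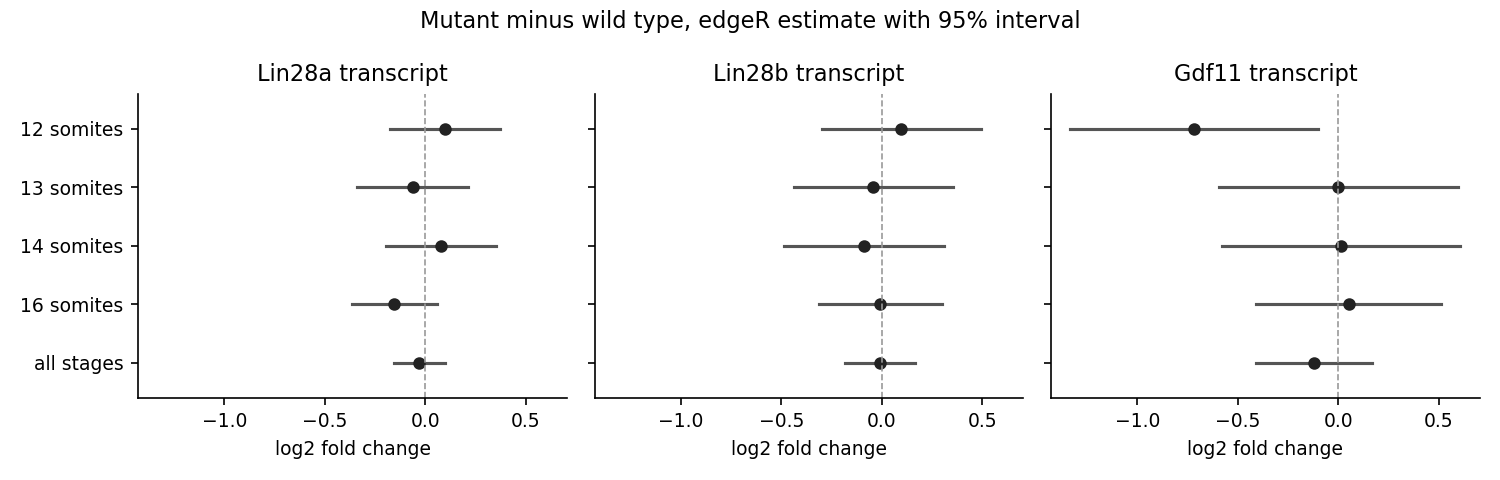
Log2 fold change of mutants against wild type at each stage and over all stages, as the edgeR estimate (point) with its 95% interval (line), and a dashed line at 0, with 1 panel per transcript. The interval of Gdf11 at 12 somites, around -0.72, is the only one that does not include 0.

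The scale used moves all transcripts together. Over the 24398 transcripts that averaged 1 CPM or more, the median genotype change was -0.01 on log2 CPM and -0.14 on log2(TPM + 0.1). Without regard to that shift, exact permutation tests of genotype on log2(TPM + 0.1) gave p = 0.0606 for Lin28a, 0.0943 for Lin28b and 0.0677 for Gdf11. Relative to these medians, the change in mutants was -0.02 and -0.03 for Lin28a, -0.01 and -0.02 for Lin28b, and -0.11 on either scale for Gdf11. The common slope per somite relative to the median was -0.07 for Lin28a, from -0.02 to -0.03 for Lin28b and 0.16 for Gdf11 on both scales.

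Embryos of the same genotype and stage also differed among themselves, and there the levels of the LIN28 paralogs were correlated. Each embryo's log2 CPM was taken as its deviation from the mean of its group, and p-values came from permuting embryos within groups. The correlation of the deviations of Lin28a and Lin28b was r = 0.723 (two-sided permutation p = 0.00113, Benjamini-Hochberg over 3 pairs 0.00339) and rho = 0.687 (permutation p = 0.00147, adjusted 0.00441). Without the 2 embryos farthest from the median of Lin28a, wild-type embryo 2 at 13 somites and embryo 1 at 14 somites, r was 0.604. Without the embryos that stood apart, r was 0.721 (permutation p = 0.00586, Benjamini-Hochberg over 3 pairs 0.0176). There rho was 0.608 (permutation p = 0.0169), and its adjusted p of 0.0506 was above the threshold. In the groups of 2 embryos the deviations are mirror images of each other, and without those groups r was 0.688 (n = 21, permutation p = 0.0058, Benjamini-Hochberg over 3 pairs 0.0174), an alternative added after the data were seen. For Lin28a and Gdf11 r was -0.018 and rho -0.046 (permutation p = 0.938 and 0.829), and r without the 2 farthest was 0.016. For Lin28b and Gdf11 r was 0.049 and rho 0.060 (permutation p = 0.881 and 0.799), and r without the 2 farthest was -0.149. That value rested on single libraries: r was 0.350 without wild-type embryo 4 at 14 somites and -0.258 without mutant embryo 1 at 16 somites. Both values of a pair come from 1 library, and the part of library composition in these correlations was not tested.

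**Figure D5:**
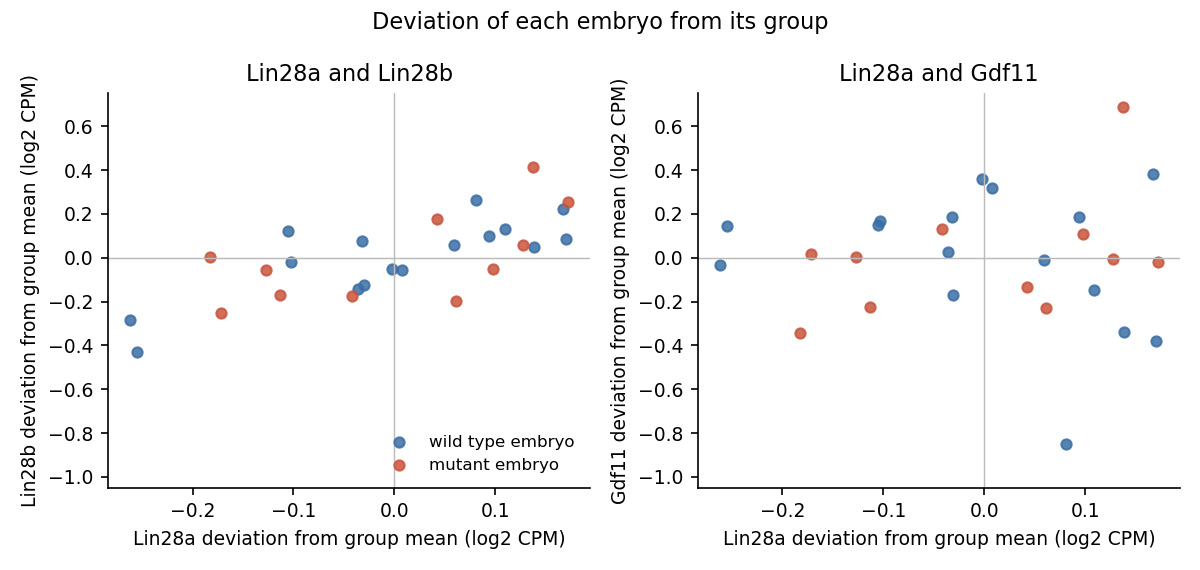
Deviation of each embryo from the mean of its genotype and stage (log2 CPM), Lin28b against Lin28a on the left and Gdf11 against Lin28a on the right, with 1 point per embryo in blue for wild type and red for mutants. The left points run from lower left to upper right (r = 0.723), and the right points do not (r = -0.018), with 1 wild-type embryo far below the others.

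The transcripts most like each member in pattern were sought by Pearson's r of log2 CPM over the 27 libraries among 24398 transcripts. For Lin28a it was ENSMUST00000034904 (r = 0.811, mean 67.2 CPM), for Lin28b ENSMUST00000039447 (r = 0.815, mean 30.4 CPM) and for Gdf11 ENSMUST00000074667 (r = 0.925, mean 81.6 CPM). These are the highest of many correlations over the same libraries and are given as a description. Lin28a and Lin28b correlated with each other at r = 0.621 on this measure, higher than 99.3% of the transcripts searched did with Lin28a.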

How the data were processed

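RNA of 27 single-embryo tailbuds was analysed, with genotype, somite number and embryo number from the sample titles. The authors deposited 1 table per library that gives, per the file headers, an estimated count (expected count) of reads, a TPM value, a length and an effective length for 117135 transcripts. Salmon 1.5.2 and Trim Galore 0.5.0 are named in the submitters' processing notes. The deposited TPM values are relative to each library and to its effective lengths. The builds mm10 and hg38 are listed there with no role, and the annotation release and the strand setting are not given in the sources used here. Reads shared by transcripts of one gene are divided by estimation, so transcripts can trade reads.

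Estimated counts were rounded and tested per transcript with edgeR 4.0.16 (quasi-likelihood, R 4.3.3, TMM scaling, the edgeR filter on low counts by group, Benjamini-Hochberg over all transcripts tested, threshold 0.05). The genotype fits used all 27 embryos, with stage as a factor or with 8 groups of genotype and stage. Slopes per somite were fitted in each genotype alone, and their difference in all embryos. Values per embryo are CPM, and permutation tests and correlations used log2 CPM with a prior count of 2, or log2(TPM + 0.1) as an alternative. Alternatives were DESeq2 1.42.0, limma 3.58.1 voom with quality weights, other scaling and filters, an effective length offset, an embryo number block, and each embryo left out. The members and lists were chosen with earlier results of these data known. The named transcripts are the 3 members and, for each, the 1 transcript of highest Pearson's r over transcripts averaging 1 CPM or more. Lists of LIN28, GDF11 and tailbud genes and markers of other cell types were not used here, since no table at hand pairs these transcripts with genes. Simulated data with known changes were run through the edgeR fits of the pooled genotype effect, the wild-type slope and the common slope. The other fits, the permutation tests and the correlations were not tested in this way. No libraries of a group agreed within sampling noise, the smallest chi-square per degree of freedom being 12.0 over 37 pairs. Figures were drawn with matplotlib 3.10.9.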

Additional observations from a re-analysis of the deposited data

Results flagged for a closer look

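In groups of 4 or 5 embryos, a single embryo far from the others was looked for with Dixon's test, over 15 combinations of a transcript and a group. Chance marks about 1 in 20 such combinations. For Lin28a, wild-type embryo 2 at 13 somites was at 107.6 CPM, against 134.4 to 139.1 CPM in the other 3 embryos. For Lin28b, mutant embryo 1 at 16 somites was at 31.5 CPM, against 20.6 to 23.7 CPM in the other 4. It passed by a small margin (0.713 against a critical value of 0.71), and on TPM the same embryo was at 4.41, against 3.62 to 3.99 in the other 4. That mutant embryo also had the lowest read total of all libraries and the lowest mean correlation to its group (0.836), and the part of these in its Lin28b level was not tested.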

How the results depend on the processing

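No member had an edgeR adjusted p under 0.05 in 36 tests, of which 7 gave an unadjusted p under 0.05. Under the alternatives other than leaving out 1 embryo, 314 values kept their direction and their side of the threshold, 21 reversed and 7 passed it newly. All reversals were of values that did not pass their test, and the cause was not tested.

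Embryo numbers did not pair the samples: deviations of same-numbered embryos correlated at a median of 0.0045 (range -0.12 to 0.122 over 76 pairs), and 4 of 27 embryos correlated best with their own number. With the embryo number as a replicate block the genotype effect was 0.00949 for Lin28b over all stages, -0.0263 for Gdf11 at 13 somites and 0.0142 for Lin28b at 16 somites, and the mutant slope of Lin28b was 0.0185. The block moved the calls for the pooled genotype effect from 7 to 1, for the mutant slope from 10 to 1, for the common slope from 91 to 38 and for the mutant change from 12 to 16 somites from 22 to 10.

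The genotype effect of Gdf11 at 13 somites was -0.00163 with RLE scaling, -0.00651 with a mean of 1 CPM or more, -0.00169 by DESeq2 and -0.00587 without the embryos that stood apart. That of Lin28b at 16 somites was 0.0142, 0.0156 and 0.0130 by the first 3 of these. For Gdf11, limma voom gave -0.0970 at 14 and -0.130 at 16 somites, and the set without the embryos that stood apart gave -0.209 and -0.148. The pooled effect was 0.00433 for Lin28b with somite number as a number, 0.0174 for Gdf11 with no stage covariate and 0.0388 for Lin28a without 16 somites. On TPM, the relation of Lin28a and Gdf11 was r = 0.0146 and that of Lin28b and Gdf11 r = -0.0183. Without the groups of 2 embryos the former was r = 0.000495.

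Newly past the threshold were the Gdf11 change in mutants from 12 to 16 somites by DESeq2 (1.16), the common slopes by DESeq2 (-0.0700 for Lin28a, 0.162 for Gdf11), and the mutant Lin28b slope by permutation on TPM (-0.0678). On TPM the median common slope of transcripts averaging 1 CPM or more was itself -0.025. Without the embryos that stood apart, the common Gdf11 slope (0.135) was newly past the threshold. By permutation, so were the Gdf11 genotype effect (-0.248) and wild-type slope (0.104). The embryos left out held the largest Gdf11 deviations from their groups (0.689 and -0.849 log2 CPM), so the spread falls by construction.

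With 1 embryo left out at a time, 1142 values kept direction and side, 68 reversed and 5 newly passed. The genotype effect ran from -0.0435 to 0.0332 for Lin28b over all stages (by permutation -0.0480 to 0.0258), from -0.196 to -0.0579 for Gdf11 over all stages, and from -0.0292 to 0.220 for Lin28a at 12 somites. For Gdf11 at 12 somites it ran from -0.823 to -0.656. At 13 somites it ran from -0.237 to 0.0815 for Lin28a, -0.310 to 0.174 for Lin28b and -0.0465 to 0.0641 for Gdf11. At 14 somites it ran from -0.00227 to 0.129, -0.290 to 0.0728 and -0.203 to 0.126 in that order. At 16 somites it ran from -0.119 to 0.0485 for Lin28b and -0.158 to 0.189 for Gdf11. The slope difference of Lin28b ran from -0.0416 to 0.0122, and the common Gdf11 slope from 0.133 to 0.178. The wild-type slope by permutation ran from -0.0589 to -0.0353 for Lin28a, newly past 0.05 without embryo 2 at 13 somites, embryo 1 at 14 or embryo 1 at 16, and from 0.0625 to 0.119 for Gdf11, newly past it without embryo 4 at 14 somites. The relation with Gdf11 ran from -0.163 to 0.0958 for Lin28a and -0.258 to 0.350 for Lin28b, lowest without mutant embryo 1 at 16 somites and highest without wild-type embryo 4 at 14.

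Counts of called transcripts moved more than the members did. For the pooled genotype effect edgeR called 7, and 3 with no filter, 27 at a mean of 1 CPM or more, 32 without the embryos that stood apart, 4 with somite number as a number, 15 with no stage covariate and 0 without 16 somites (2282 at an unadjusted p under 0.05), against 42 by limma voom and 189 by DESeq2. DESeq2 called 219, 188, 17, 231, 499, 42, 152 and 181 where edgeR called 3 (13 somites), 3 (14 somites), 3 (interaction), 9 and 22 (16 against 12 somites in wild type and mutants), 8 and 10 (slopes in wild type and mutants) and 91 (common slope). limma voom called 15, 11, 6, 22 and 18 at 13 and 14 somites, for the interaction, for 16 against 12 somites in wild type and for the wild-type slope. The common slope had 159 calls with no filter and 4 without 16 somites. Without 16 somites edgeR called 0 for the slopes in wild type and mutants (2064 and 1759 at an unadjusted p under 0.05). Without the embryos that stood apart it called 13 for the wild-type slope, 6 for the interaction and 5 at 12 somites, and the block left 1 at 13 somites.

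Sums over all transcripts of each gene were not run, since no annotation paired them. The precision at 12, 13 and 14 somites is limited by the 2 mutant embryos at each of these stages.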
